A study of Mus musculus with 9 samples.

Results

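Hyperbaric oxygen treatment, in which oxygen is breathed in a pressurised chamber, was set against no treatment in injured spinal cord. The comparison used 3 libraries of treated injured cord (HBO) and 3 of untreated injured cord (injury), which are 6 of the 9 libraries of the study. The remaining 3 libraries came from cord without injury (control), and their values are given beside the others. All libraries were made from the spinal cord of wild-type C57BL/6 mice aged 7 to 9 weeks and sampled on day 7. The labels describe control mice as without injury while the series design calls that group sham, so surgery in this group cannot be told from the sources used here. The injury model, the pressure and schedule of the oxygen and the number of animals behind a library were not stated in those sources. The deposited counts covered 69547 long noncoding transcripts. Transcripts that shared an Ensembl gene name were summed and the others stayed single, which gave 67924 features, and 26602 of these passed a filter on low counts and were tested.

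Long noncoding RNAs are transcripts without a recognised protein product. Some act in the nucleus as scaffolds, some silence imprinted loci or the X chromosome, and others are precursors of microRNAs or small nucleolar RNAs. Many lie on, inside or next to a coding gene, so that reads of the coding gene and of the noncoding transcript can fall on the same bases. In the injured cord the treatment is used to raise the oxygen dissolved in plasma and tissue.

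The counts summed to between 2295433 and 3148744 per library. In a principal component analysis of all 9 libraries, the first component separated control from the injured groups, and the second separated HBO replicate 3 from the remaining 8. The HBO and injury libraries did not separate by group when these 6 libraries were analysed alone. The sources used here do not say whether replicates are different animals, so each p-value measures only the spread between libraries, which may be technical. Transcripts over the myelin gene Mbp summed to between 732 and 1017 CPM in the 6 libraries. None of the 8 erythroid genes checked had a tested sum, but only 2 of them overlapped a listed transcript. Blood content can therefore not be read from these genes. Levels are given as CPM, a count relative to the library total after the trimmed mean of M-values (TMM) scaling of edgeR.

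Of the 26602 features, 4 passed (0.0150% of those tested), with 2 higher (0.00752%) and 2 lower (0.00752%) in HBO than in injury. The feature with the smallest p-value was NONMMUT034612.2, on an untranslated exon of Ide, which encodes a protease that degrades insulin and amyloid beta (chromosome 19, 37268974 to 37270710, GRCm38). It had 335, 307 and 249 counts in HBO replicates 1, 2 and 3 and 12, 12 and 9 counts in injury replicates 1, 2 and 3. The control replicates had 211, 280 and 290 counts, so that the injury group alone was low. In CPM the groups stood at 119.7 ± 16.5 (HBO), 4.16 ± 0.731 (injury) and 98.8 ± 16.7 (control; SD, n = 3 each), and the log2 change from injury to HBO was 4.83 (SE 0.24, adjusted p = 0.000142, quasi-likelihood test of edgeR, Benjamini-Hochberg adjustment over all features). The difference was larger than the spread in either group. The 1 tested neighbour within 10 kb, NONMMUT034607.2, which lies outside Ide, had 31, 16 and 11 counts in HBO and 18, 10 and 14 in injury, and its log2 change of 0.55 (95% interval -0.37 to 1.46) did not pass.

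The other called feature that was higher was NONMMUT100183.1 (chromosome 16, 75184085 to 75188832, GRCm38), an intergenic transcript. It had 0 counts in every injury library and 18, 15 and 22 counts in HBO replicates 1, 2 and 3, with 38, 46 and 48 in control. Against 3 counts over the injury group it was at least 19.6-fold higher in HBO (adjusted p = 0.0388, edgeR); this bound covers counting error only. Its 6 tested neighbours within 10 kb were present in injury as in HBO, with log2 changes from -0.11 to 0.14. The nearest, NONMMUT100185.1, starts 179 bp away and had 10, 8 and 15 counts in injury and 10, 4 and 20 in HBO. The neighbours therefore did not share the zeros of the injury group.

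In the opposite direction, NONMMUT086510.1 (chromosome 12, 21558383 to 21564177, GRCm38), also intergenic, had 0 counts in each HBO library. It had 81, 126 and 83 counts in injury replicates 1, 2 and 3 and 150, 163 and 152 in control, and HBO was the only group without it. The level in HBO was at least 90.8-fold lower than in injury, by the same bound (adjusted p = 0.00290, edgeR). NONMMUT086511.1, which starts 79 bp past its end, had 50, 30 and 49 counts in HBO and 33, 52 and 62 in injury, a log2 change of -0.10 (95% interval -0.69 to 0.50). Both tested transcripts on its other side lie over the pseudogene Gm19196, and each was at 0 in 4 of the 6 libraries, with groups that overlapped.

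NONMMUT069202.2 lies on an untranslated exon of Hykk, which encodes hydroxylysine kinase (chromosome 9, 54947749 to 54949913, GRCm38). It had 66, 48 and 57 counts in injury replicates 1, 2 and 3 against 4, 4 and 8 in HBO and 3, 4 and 2 in control. The injury group stood alone here as well, on the high side. The levels were 21.5 ± 3.29 CPM in injury, 2.15 ± 0.938 in HBO and 1.15 ± 0.431 in control (SD, n = 3 each), and the log2 change from injury to HBO was -3.29 (SE 0.36, adjusted p = 0.0388, edgeR). No tested feature lay within 10 kb of it.

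**Figure D1:**
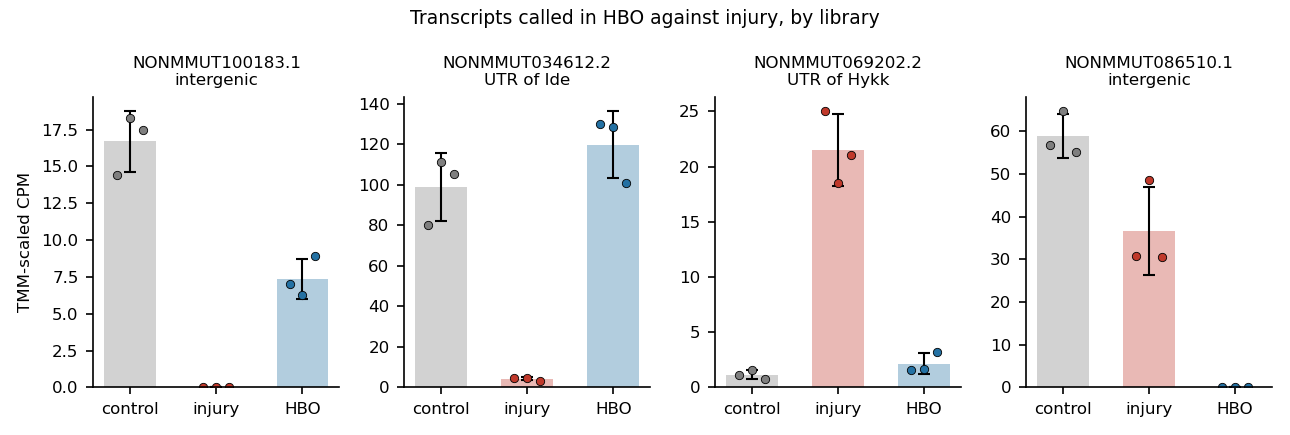
TMM-scaled CPM (vertical axes, linear and from 0, a separate scale in each panel) of the 4 called features in the control, injury and HBO libraries. Points are libraries, bars are means and error bars are the SD of 3 libraries. NONMMUT034612.2 is low in injury only (4.16 CPM), NONMMUT069202.2 is high in injury only (21.5 CPM), NONMMUT100183.1 is at 0 in injury and NONMMUT086510.1 is at 0 in HBO.

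Of these calls, NONMMUT034612.2 passed in every refit. NONMMUT100183.1 did not pass without HBO replicate 1 (adjusted p = 0.0625, edgeR) or without control replicate 1, 2 or 3 (0.0787, 0.102 and 0.185), and NONMMUT069202.2 did not pass without HBO replicate 1 or 2, injury replicate 1 or 3 or any 1 of the control replicates (0.0621 to 0.0962) (all edgeR). Fitted on the 6 HBO and injury libraries alone, NONMMUT100183.1, NONMMUT069202.2 and NONMMUT086510.1 did not pass (0.253, 0.0706 and 0.0600, edgeR), and with library totals from the FPKM values the first 2 of these did not (0.0518 and 0.0722). NONMMUT069202.2 also did not pass without the filter on low counts (0.0650, edgeR). With overlapping transcripts merged, NONMMUT086510.1 lay in a set of 8 whose sum did not pass (log2 change -2.17, edgeR). The number of calls was 19, 15 and 17 without injury replicates 1, 2 and 3, it was 9, 15 and 14 without HBO replicates 1, 2 and 3, and it was 2 without control replicate 3.

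The largest differences came from transcripts that were present in some libraries and nearly absent in others. Beyond the called features, the 8 largest changes each way were taken among features whose HBO and injury libraries did not overlap, at 5 CPM or more in the higher group and an unadjusted p under 0.05. Of these 16 features 2 passed and 14 did not (edgeR). Of the 14, DESeq2, a second tool described below, called NONMMUT110693.1, NONMMUT123650.1, NONMMUT068132.2, NONMMUT057857.2, NONMMUT136504.1 and NONMMUT025568.2 (adjusted p 5.96e-05 to 0.0374). It did not call the others. The 16 were 7 transcripts on exons of coding genes and 9 intergenic ones. In 13 of the 16, a gap of 8-fold or more (on CPM plus 0.5) separated the 9 libraries into high and low ones. Features with such a gap are here called all-or-none, and 1108 of all tested features (4.17%) were. This measure was chosen after the values were seen. The 16 were taken for the size of their change, which itself favours such a gap, so no conclusion is drawn from these shares.

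Of the increases that did not pass, those on exons of coding genes are given first. NONMMUT050210.2, on an untranslated exon of Camk2n1, an inhibitor of the calcium-dependent kinase CaMKII, had 849, 785 and 723 counts in control. It had 2 counts in each injury library and 327, 2 and 2 counts in HBO replicates 1, 2 and 3. A single HBO library therefore carried the difference, and the groups did not overlap only because equal counts of 2 were divided by slightly different library sizes.

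NONMMUT057857.2, on an untranslated exon of Rab7, which directs late endosomes to lysosomes, had 1 count in each injury library and 71, 1 and 92 counts in HBO. The antisense gene Gm5577, which overlaps it, had 52, 59 and 69 counts in HBO and 45, 68 and 84 in injury, a log2 change of -0.03 (95% interval -0.56 to 0.50). The groups of the overlapping gene overlapped.

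NONMMUT031986.2, on the coding exon of Pura, a DNA- and RNA-binding protein of neurons, had 2, 275 and 435 counts in HBO and 2 counts in every injury library; in control it had 2, 546 and 2. Its neighbour on the Pura untranslated exon, NONMMUT031987.2, was even, with 1062, 1172 and 1232 counts in injury and 1439, 1008 and 1295 in HBO (log2 change 0.20, 95% interval -0.12 to 0.52). NONMMUT041616.2 over Vapb, a membrane protein of the endoplasmic reticulum, had 942, 862 and 3 counts in control. It had 582 counts in HBO replicate 3 and 2 or 3 counts in the other 5 HBO and injury libraries. For 4 of the 16 features the raw counts of the groups touched in this way.

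NONMMUT068132.2, on an untranslated exon of the angiomotin family member Amotl1, was the most even of the increases that did not pass. It had 373, 360 and 289 counts in HBO, 4, 6 and 5 in injury and 5, 205 and 243 in control (log2 change 6.15, SE 1.12, adjusted p = 0.520, edgeR). Control replicate 1 was low where the other control libraries were high, and without it the adjusted p was 0.000103 (edgeR). With the 6 HBO and injury libraries alone the adjusted p was 0.000305 (edgeR), and with DESeq2 on all libraries it was 5.96e-05. The neighbour NONMMUT068131.2, which ends 354 bp away on the same gene, was high in 1 library of each group, with 305 counts in injury replicate 1 and 196 in HBO replicate 1.

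NONMMUT110693.1 (chromosome 3, 17818651 to 17821048, GRCm38), beside Mir124-2hg, the host gene of a copy of the neuronal microRNA miR-124, had 0 counts in each injury library, 17, 7 and 24 in HBO and 52, 43 and 48 in control. It was at least 16.97-fold higher in HBO than in injury by the same bound, and without HBO replicate 2 it passed (adjusted p = 0.0423, edgeR). The transcripts on either side, 66 and 81 bp away, were present in injury at 10, 15 and 19 and at 51, 62 and 87 counts. Their log2 changes were -0.20 and 0.10, and that of Mir124-2hg was -0.07 (95% interval -0.40 to 0.27).

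The decreases were mostly intergenic transcripts at 0 in HBO. The count was 0 in all HBO libraries for 7 of the 8 and in all injury libraries for 3 of the 8 increases; over all tested features 35 were at 0 in HBO alone and 32 in injury alone. NONMMUT136504.1, a transcript 7272 bp from Phf8, a histone demethylase gene on the X chromosome, had 34, 16 and 11 counts in injury, 27, 11 and 13 in control and 0 in HBO, at least 19.1-fold lower. NONMMUT136505.1, whose start lies 1 bp past its end, had 16, 31 and 34 counts in HBO and 25, 0 and 23 in injury. NONMMUT099966.1, in a run of intergenic transcripts whose nearest coding gene is the axon guidance receptor Robo2, had 18, 28 and 24 counts in injury and 0 in HBO, at least 21.9-fold lower, but also 0 in control replicate 2. Its 11 neighbours had log2 changes from -1.10 to 0.69 with a median of 0.04.

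NONMMUT060510.2, NONMMUT001119.2 and NONMMUT009145.2 were likewise at 0 in HBO and at 0 or 1 counts in 1 or 2 control libraries, at least 25.5-fold, 15.0-fold and 13.7-fold lower in HBO than in injury. But NONMMUT001119.2 had 1, 25 and 22 counts in injury, so injury replicate 1 was near 0 as well. NONMMUT025568.2, on an untranslated exon of Bfar, an apoptosis regulator, had 118, 2 and 112 counts in injury and 1 count in each HBO library. Within injury, then, 1 library was as low as the treated ones.

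Across the 18 named features, called or largest, 14 had a tested neighbour within 10 kb and 4 had none. The 53 neighbours had a median log2 change of -0.06, and 47 of them lay within 2-fold of no change. None of the 53 passed (edgeR), and 4 were without overlap in the lower direction and 0 in the higher one. Each of these values is that of a neighbour alone, with the named feature left out.

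**Figure D2:**
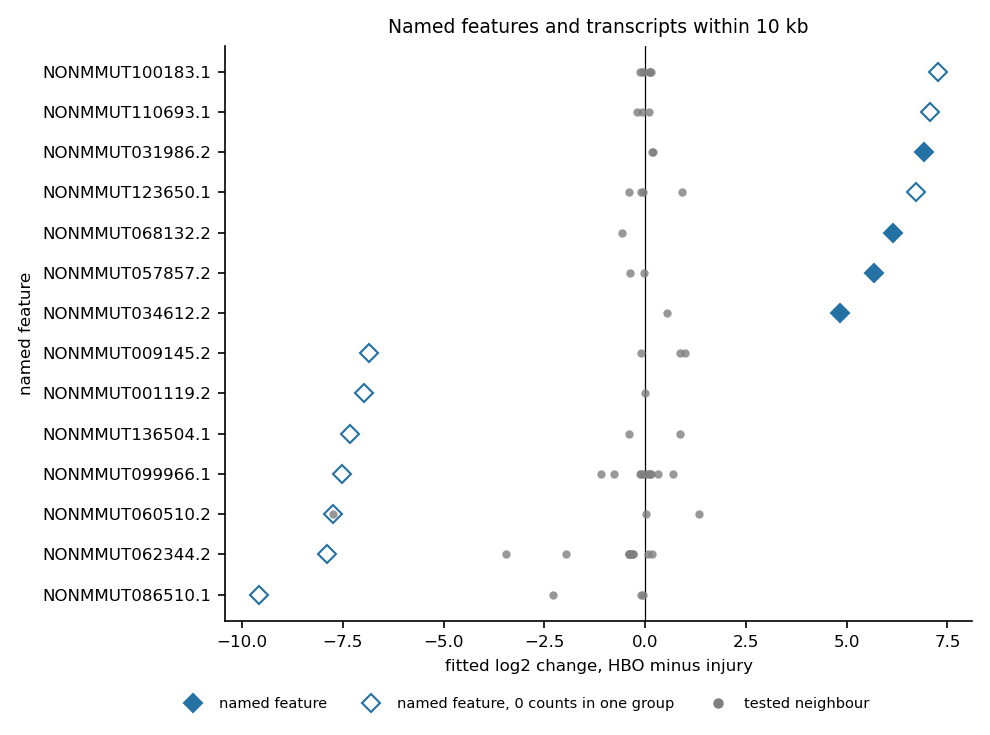
Fitted log2 change from injury to HBO (horizontal axis) of the named features that have a tested neighbour (rows, diamonds) and of each neighbour within 10 kb (grey points). Open diamonds mark features with 0 counts in one group, whose fitted value depends on the prior count and is no bound. Most grey points lie near 0 (median -0.06, neighbours of increases and decreases pooled). The diamonds, which unlike the grey points were selected for their change, lie beyond 4 in size.

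Agreement between the 3 libraries of each group was then read without regard to size. Of the tested features, 1174 were higher in every HBO library than in every injury library (4.41%) and 1085 were lower (4.08%). With CPM not scaled by TMM these counts were 1891 and 556, so the split between higher and lower depended on the scaling. An unadjusted p under 0.05 was reached by 966 features (3.63%), 511 higher and 455 lower. The median log2 change of all features was -0.00, and with library totals recovered from the deposited FPKM values it was 0.06.

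The features that combined no overlap, an unadjusted p under 0.05 and 5 CPM or more numbered 637 (2.39%), 351 higher and 286 lower. Their own median log2 changes were 0.82 and -0.87. The medians of their neighbours, which were not selected for a change, were 0.03 and -0.05. Of the 236 higher ones with a tested neighbour, 18.2% had a neighbour that was also higher without overlap, beside 12.6% of all tested features with a neighbour. Of the 193 lower ones the share was 18.1% beside 11.99%. A neighbour without overlap in the opposite direction was found for 13.6% of the higher ones, beside 11.99%. For the lower ones it was found for 11.4%, beside 12.6%. Neighbours can overlap and so share reads, which was not measured, and no test was made of these shares. Intronic transcripts were seldom all-or-none (1.35%), and those on coding exons (7.32%) and between genes (5.20%) more often.

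Only 15 features had at least 2 neighbours without overlap in their own direction and none in the other, a selection made after the values were seen and so given without a test. Those at some of the loci are described here, and the locus of a microRNA is among them. The selection itself raises the number of features without overlap at these loci. Mir9-3hg is the host transcript of miR-9, a microRNA of neural progenitors and neurons. Its mature strands are shown because 1 of the lower transcripts, NONMMUT125478.1, covers their precursor (RefSeq, GRCm38.p6, plus strand of chr7:79505279-79505301 and chr7:79505318-79505339), with the seed, bases 2 to 8, in capitals:
mmu-miR-9-5p: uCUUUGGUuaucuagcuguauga
mmu-miR-9-3p: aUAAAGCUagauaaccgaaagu
The counts do not measure the mature microRNAs, which are shorter than the fragments of such libraries.

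NONMMUT125478.1 spans nearly the whole Mir9-3hg locus with the miR-9 precursor, and had 60, 49 and 48 counts in HBO, 67, 79 and 74 in injury and 69, 89 and 89 in control. Its log2 change was -0.39 (95% interval -0.79 to -0.00). Gm37608, within the locus, had 82, 74 and 59 counts in HBO and 96, 95 and 114 in injury, with a log2 change of -0.41 (95% interval -0.77 to -0.05). All 3 HBO libraries were below all 3 injury libraries in both. NONMMUT062344.2, which overlaps Gm37608, had 36, 31 and 23 counts in injury and 0 in HBO, at least 28.2-fold lower, but 0, 37 and 20 in control.

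Over the 11 tested features of the Mir9-3hg locus, 9 had a log2 change under 0 and 2 above it, with a median of -0.37. Of the 11, 4 were lower without overlap, beside 4.08% of all tested features. Summed over the locus the levels were 149, 121 and 139.9 CPM in HBO replicates 1, 2 and 3 and 179.7, 202 and 193 CPM in injury. They were 136, 228 and 179.9 CPM in control, so HBO and control overlapped. None of the 11 passed (edgeR). The groups of other host transcripts of neural microRNAs overlapped: C130071C03Rik at the Mir9-2 gene had a log2 change of 0.07 (95% interval -1.12 to 1.26) and Mir124a-1hg, a host of miR-124, one of -0.31 (95% interval -0.86 to 0.25).

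In the higher direction, 3 of the 15 features lay at Gm4593, a long intergenic noncoding gene (chromosome 7, 134425278 to 134501160, GRCm38). Of its 17 tested features 16 had a log2 change above 0, with a median of 0.40 and a highest value of 0.71. Of the 17, 7 were higher without overlap, beside 4.41% of all tested features. NONMMUT127837.1 had 81, 70 and 95 counts in HBO, 60, 51 and 61 in injury and 63, 66 and 73 in control (log2 change 0.61, 95% interval 0.24 to 0.98). NONMMUT127842.1 had 60, 49 and 55 counts in HBO against 38, 42 and 28 in injury (log2 change 0.69, 95% interval 0.19 to 1.19). Each of these differences was under 2-fold. The summed level was 349.8, 297 and 399 CPM in HBO, 277, 244 and 259 CPM in injury and 286, 359 and 305 CPM in control.

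A230057D06Rik, also on chromosome 7 (61704519 to 62091267, GRCm38), was a longer locus. Of its 24 tested features, 17 had a log2 change above 0 and 6 were higher without overlap, beside 4.41% of all tested features. Its summed level was 566, 460.0 and 580.2 CPM in HBO, 359, 443 and 509 CPM in injury and 767, 789 and 650.3 CPM in control, and HBO and injury overlapped. At Gm32122 on chromosome 8, 3 of 6 features were higher without overlap, with NONMMUT066858.2 at 58, 74 and 53 counts in HBO and 26, 26 and 51 in injury (log2 change 0.95, 95% interval 0.13 to 1.77). Summed over Gm32122 the groups overlapped, at 160.3, 94.9 and 109 CPM in HBO and 78.9, 77.8 and 108 CPM in injury. At Gm20559 on chromosome 6, whose nearest coding gene is the interferon-inducible Samd9l, the summed transcripts of that name had 90, 89 and 53 counts in HBO, 52, 27 and 20 in injury and 8, 11 and 8 in control. There the log2 change was 1.32 (95% interval 0.49 to 2.15) and HBO lay farther from control than injury did. The sum of the 12 transcripts overlapping at this locus had a smaller log2 change of 0.60 (95% interval 0.13 to 1.08). No feature of either locus passed (edgeR).

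DESeq2, run as a second tool on the same counts, called 55 features (0.135% of the 40757 with an adjusted p), 30 higher and 25 lower, among them all 4 called by edgeR. Of the 55, 49 had groups that did not overlap, 19 were all-or-none and 8 had not passed the filter used with edgeR. Among the largest, NONMMUT115330.1 (chromosome 4, 99277582 to 99280563, GRCm38) had 11, 11 and 14 counts in HBO, 0 in injury and 0, 1 and 0 in control. It was the one transcript of this set seen in HBO and in neither other group beyond 1 count. NONMMUT105487.1 had 16, 5 and 11 counts in HBO, 0 in injury and 17, 13 and 16 in control, and NONMMUT123650.1 had 23, 11 and 4 counts in HBO, 0 in injury and 16, 0 and 17 in control.

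Among the largest DESeq2 decreases, NONMMUT073505.2, in the locus of Ftx, a noncoding RNA that acts in X inactivation, had 10, 8 and 15 counts in injury, 11, 26 and 12 in control and 0 in HBO. Ftx itself had a log2 change of 0.05 (95% interval -1.33 to 1.43). NONMMUT058039.2, a long transcript across the metalloprotease gene Adamts9, had 15, 6 and 17 counts in injury and 0 in HBO, with 12, 0 and 14 in control. NONMMUT029850.2, across Bicral, had 42, 42 and 1 counts in injury and 0 in HBO. Of the 25 features that DESeq2 called lower, 7 were at 0 in every HBO library.

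**Figure D3:**
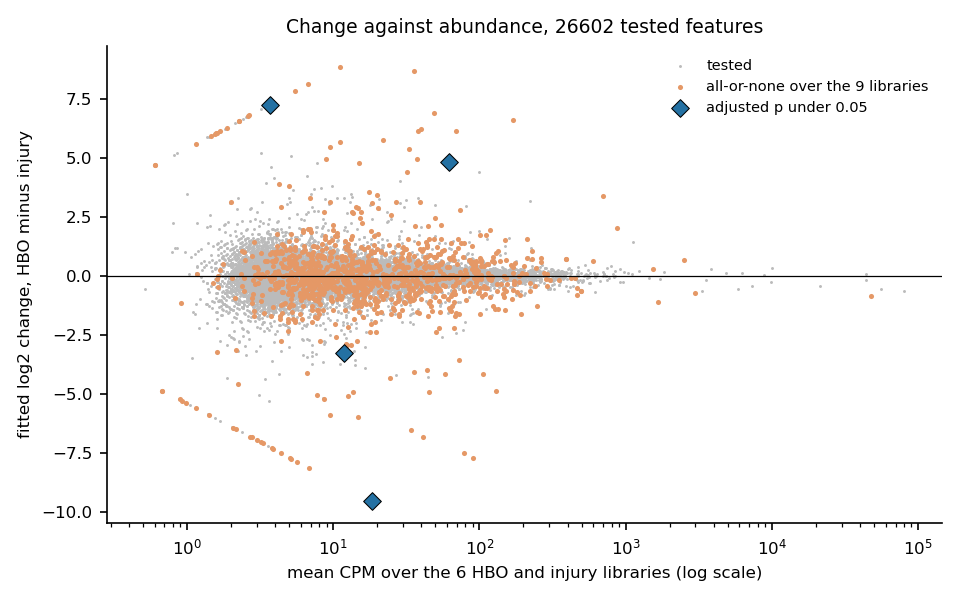
Fitted log2 change from injury to HBO (vertical axis) against mean CPM over the 6 libraries (horizontal axis, log scale) for the 26602 tested features. Orange points are all-or-none over the 9 libraries and blue diamonds are the 4 called features; the slanted rows of points at the left are features at 0 counts in one group. Most features lie close to 0, and the large values are mostly orange.

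No well-known long noncoding RNA passed in this comparison. Of 90 such RNAs on a list, 68 were in the files, 61 were tested and 0 were called (edgeR; 1 reached an unadjusted p under 0.05, with 0 called by DESeq2). Their median log2 change was -0.09, with 25 above 0 and 36 below. For 27 of the 61, and 18 of the 28 with 50 CPM or more, the 95% interval lay within 2-fold in both directions.

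Among nuclear RNAs, Neat1, the scaffold of paraspeckles, stood at 4147, 5272 and 4626 CPM in HBO replicates 1, 2 and 3 and at 9938, 4302 and 6749 CPM in injury. The groups overlapped, and the log2 change was -0.58 (95% interval -1.38 to 0.22). Malat1, a nuclear speckle RNA, had a log2 change of -0.07 (95% interval -0.54 to 0.39). Xist, which coats the inactive X chromosome, stood at 8086, 9464 and 9288 CPM in HBO and 9211, 8895 and 8217 CPM in injury (log2 change 0.03, 95% interval -0.26 to 0.31).

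Among imprinted RNAs, Rian, of the Dlk1-Dio3 locus, had 799, 798 and 914 CPM in HBO and 736, 851 and 804 in injury, where control had 1404, 1203 and 1193. Its log2 change of 0.07 (95% interval -0.23 to 0.37) set it near the injury level. Meg3 of the same locus had a log2 change of -0.18 (95% interval -0.52 to 0.17), Snhg14 at Ube3a one of 0.01 (95% interval -0.42 to 0.44) and Peg13 one of 0.15 (95% interval -0.32 to 0.62). H19 was uneven in both groups, at 203, 688 and 490 CPM in HBO and 571, 429 and 162 CPM in injury, so its interval of -0.85 to 1.35 around a log2 change of 0.25 did not exclude a 2-fold rise.

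Kcnq1ot1, the antisense RNA that silences genes of the Kcnq1 cluster, had 0 counts in injury replicate 1 and 7527 and 7775 counts in replicates 2 and 3, against 7464, 7017 and 8541 in HBO. NONMMUT064312.2, which overlaps one end of it, had 340 counts in that injury library, 375 in control replicate 3 and 1 count in each of the other 7. The interval for Kcnq1ot1 was accordingly wide, -2.64 to 4.01 around 0.69. Gm26917 (chromosome 17, 39843013 to 39846341, GRCm38), had 104 counts in HBO replicate 3 and between 111348 and 196022 in the other 5 libraries. In the same HBO library NONMMUT029642.2, which spans it and an annotated ribosomal RNA, had the highest count of the 6, 155152. The sources do not say how reads were divided between overlapping entries.

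Precursors of microRNAs and small nucleolar RNAs had groups that overlapped. Gas5, a small nucleolar RNA host that accumulates in arrested cells, had a log2 change of 0.04 (95% interval -0.30 to 0.37), Mir99ahg one of 0.16 (95% interval -0.16 to 0.48) and Mir22hg one of -0.10 (95% interval -0.79 to 0.59). Dnm3os, from which miR-199a and miR-214 are cut, had 61.0, 113 and 59.0 CPM in HBO and 155, 86.3 and 44.7 CPM in injury, where control had 2.18 CPM or less. Among neural RNAs, Sox2ot and Rmst had log2 changes of -0.12 (95% interval -0.46 to 0.23) and -0.01 (95% interval -0.33 to 0.32); the signs for Rmst and Dleu2 turned with library totals from FPKM.

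The smallest p-values on the list included those of Trp53cor1, a p53-induced RNA next to Cdkn1a, and Hotairm1 of the Hoxa cluster. The others were those of Gm42418, which overlaps an annotated ribosomal RNA, and Mir143hg, the host of the smooth muscle microRNAs miR-143 and miR-145. Trp53cor1 had 17.9, 17.6 and 10.1 CPM in HBO, 27.3, 35.4 and 17.7 CPM in injury and 10.98, 13.1 and 8.72 CPM in control. The lowest injury library lay between the HBO libraries, and the log2 change was -0.82 (95% interval -1.53 to -0.11). Hotairm1, at 2, 6 and 7 counts in HBO and 13, 15 and 17 in injury, was the 1 listed RNA without overlap (log2 change -1.46, 95% interval -3.03 to 0.11), but the sum of the 4 transcripts overlapping at its locus had a log2 change of 0.38 (95% interval -0.41 to 1.17).

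**Figure D4:**
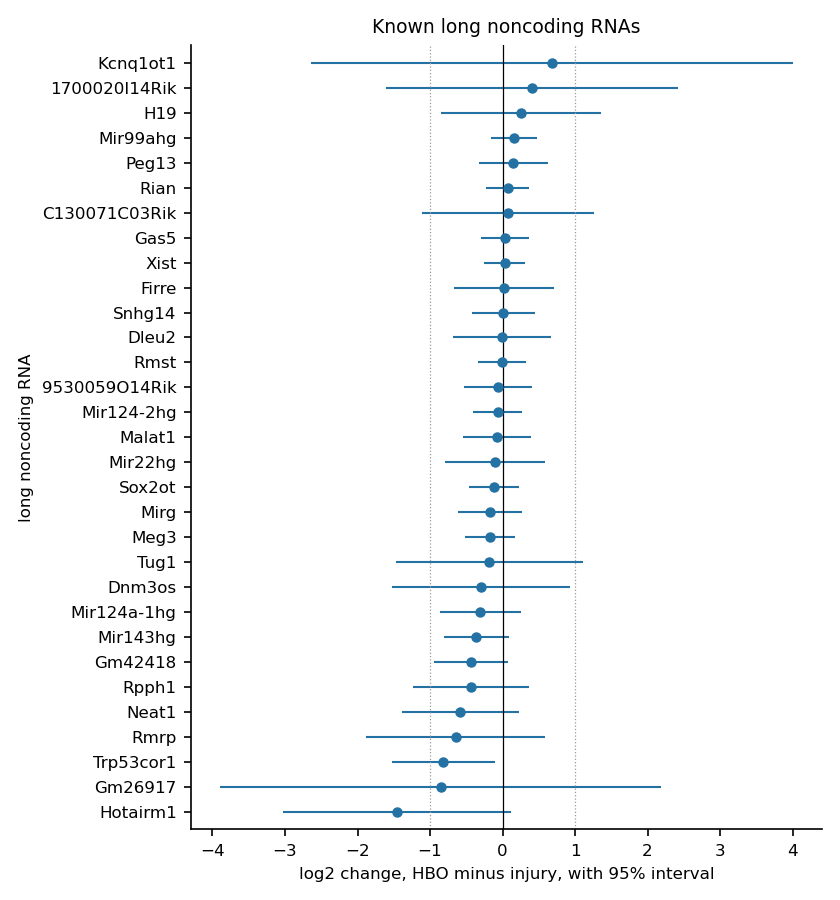
Log2 change from injury to HBO with its 95% interval (horizontal axis) for the listed long noncoding RNAs at 50 CPM or more and those with the smallest p-values (rows). Dotted lines mark a 2-fold difference. Xist, Rian, Gas5 and Meg3 have intervals well within the dotted lines, and those of Kcnq1ot1 and Gm26917 run far beyond them.

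Among the most abundant entries were small structural RNAs. Gm26917, NONMMUT029642.2 and Gm42418, at a locus on chromosome 17 with an annotated ribosomal RNA, were also among them, as was Xist. NONMMUT014453.2 and NONMMUT014466.2, over the 7SL genes Rn7s1 and Rn7s2 of the signal recognition particle, had log2 changes of -0.64 (95% interval -1.84 to 0.55) and -0.58 (95% interval -1.80 to 0.65). HBO replicate 3 was lowest for both, with 52001 and 34470 counts where the other 5 libraries had at least 179490 and 123458. Rpph1, the RNA of ribonuclease P, and Rmrp, the RNA of the related ribonuclease MRP, were also lowest there, at 10549 and 2539 counts. NONMMUT070124.2, over the 7SK gene that restrains transcription elongation, was not, at 113568 counts, and its log2 change was -0.16 (95% interval -0.85 to 0.52). NONMMUT136060.1, on Cdr1, the locus of a circular RNA that binds miR-7, had a log2 change of 0.34 (95% interval -0.33 to 1.00).

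To read coding genes and their pathways, counts of the noncoding transcripts that overlap a coding gene were summed per gene, here called its host-gene sum. These sums hold transcripts on exons, whose reads were not told apart from those of messenger RNA, and in bulk tissue fewer cells of a type and less RNA per cell cannot be told apart. Of 7069 sums 2 passed (0.0283%), Ide with a log2 change of 4.39 (SE 0.20, adjusted p = 3e-05, edgeR) and Hykk with one of -3.26 (SE 0.35, adjusted p = 0.0241, edgeR); both are the called transcripts above. Without HBO replicate 1 or 2, injury replicate 1 or 3 or control replicate 1, Hykk did not pass (adjusted p 0.0531 to 0.157, edgeR). The number of sums called was 6 without HBO replicate 2 or 3 or injury replicate 1 or 2, 4 without control replicate 2 and 1 without control replicate 1.

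The 24 gene lists for pathways and cell types held 473 genes, of which 198 had a tested sum. None of the 198 passed (edgeR; lowest adjusted p = 0.991). An unadjusted p under 0.05 was reached by 17 of them, 7 higher and 10 lower, beside 304 of all sums (4.30%). For 121 of the 198 the 95% interval lay within 2-fold in both directions. Among the 20 lists with at least 5 tested sums the medians ran from -0.45 to 0.12.

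For oxygen sensing, 9 sums had a median log2 change of -0.00. Arnt, the partner of the hypoxia-inducible factors, had 26.0, 41.4 and 32.3 CPM in HBO and 44.7, 42.4 and 50.6 CPM in injury (log2 change -0.45, 95% interval -0.85 to -0.06). Bnip3l, a mitophagy receptor induced in hypoxia, had one of 0.62 (95% interval -0.00 to 1.23). Of 9 antioxidant sums, with a median of -0.16, Keap1, which holds the oxidant sensor Nrf2 in check, had 5.05, 3.35 and 1.62 CPM in HBO and 7.20, 7.32 and 5.54 CPM in injury (log2 change -0.97, 95% interval -1.82 to -0.11).

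Inflammatory and cell death genes gave single sums on either side. Aim2, a sensor of cytosolic DNA, had a log2 change of 0.69 (95% interval 0.02 to 1.37) and the cytokine Il1b one of -0.70 (95% interval -1.60 to 0.21), with a median of 0.06 over 8 inflammasome and cytokine sums. For Toll-like receptor and NF-kappaB signalling the median of 10 sums was -0.02, with Irak4 at -0.55 and Traf3 at 0.18. Of 13 apoptosis sums 10 were below 0, with a median of -0.25. Diablo, a mitochondrial protein that relieves caspase inhibition, had 3.88, 2.51 and 2.02 CPM in HBO and 3.79, 7.32 and 5.91 CPM in injury, with groups that overlapped (log2 change -0.98, 95% interval -1.98 to 0.01).

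Autophagy had 15 sums and a median of -0.09. Atg12, which is conjugated to Atg5 as autophagosomes form, had 4 noncoding transcripts, and its sum stood at 239.9, 169 and 309 CPM in HBO, 162, 139 and 144 CPM in injury and 137, 129.8 and 125 CPM in control. Every HBO library was above every other library, with a log2 change of 0.73 (95% interval 0.24 to 1.21) that did not pass adjustment. Wipi2, another autophagosome factor, was at -1.44 (95% interval -2.86 to -0.02). Among 12 mitochondrial and sirtuin sums (median -0.06), the deacetylase Sirt1 had 73.8, 82.4 and 81.7 CPM in HBO and 39.1, 51.6 and 39.9 CPM in injury (log2 change 0.88, 95% interval 0.27 to 1.49). Sirt3, its mitochondrial relative, went the other way at -0.84 (95% interval -1.54 to -0.14). For endoplasmic reticulum stress the median of 7 sums was 0.12.

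Vascular and growth factor genes followed. The medians were -0.12 for 12 angiogenesis sums, 0.02 for 7 barrier and water channel sums and 0.09 for 11 neurotrophic sums. Flt1, a VEGF receptor whose sum came from 1 transcript on its untranslated exon, had 68.3, 38.5 and 0.809 CPM in HBO and 11.4, 1.93 and 1.48 in injury, with 70.0, 54.4 and 1.45 in control. Its levels split within every group. Nrp2, a co-receptor of VEGF and semaphorins, had a log2 change of -0.31 (95% interval -0.62 to -0.01), and Angpt1, a vessel-stabilising ligand, one of 0.30 (95% interval -0.00 to 0.60).

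For neurons, 7 marker sums had a median of -0.09 and 18 sums of transmission genes one of 0.05. Gria1, an AMPA receptor subunit, had 22.5, 22.2 and 24.3 CPM in HBO, 31.1, 35.4 and 32.5 CPM in injury and 36.7, 45.3 and 44.3 CPM in control (log2 change -0.50, 95% interval -0.84 to -0.16). The order control, injury, HBO held without overlap for Gria1. Gria2, the subunit that limits calcium entry, had one of 0.63 (95% interval 0.00 to 1.25), with 200, 97.4 and 172 CPM in HBO, 88.3, 107 and 114 CPM in injury and between 213 and 301 CPM in control. So the 2 subunits differed in direction.

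For glia the medians were -0.13 over 7 oligodendrocyte sums, -0.22 over 8 astrocyte sums, 0.04 over 6 microglia sums and 0.17 over 3 Schwann cell sums. For endothelial cells and pericytes the median was -0.29 over 6 sums, and the 1 tested lymphocyte and neutrophil sum had 0.16. The summed level of the microglia list ran from 488 to 728 CPM in HBO and from 492 to 743 CPM in injury, that of the oligodendrocyte list from 1391 to 1592 and from 1296 to 1464 CPM. These ranges overlapped. The macrophage list had the lowest median, -0.45 over 8 sums, with summed levels of 357 to 670 CPM in HBO and 468 to 768 CPM in injury. Msr1, a scavenger receptor of foamy macrophages, had 10.5, 19.2 and 15.8 CPM in HBO and 51.2, 18.1 and 21.8 CPM in injury, so injury replicate 1 set the difference (log2 change -0.97). Gpnmb, another macrophage gene, had 19.8, 0.418 and 26.7 CPM in HBO and under 1 CPM in injury (log2 change 4.87, 95% interval 1.68 to 8.07).

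Scar genes were uneven between libraries. Over 11 fibroblast and scar sums the median was -0.31, and their summed level ran from 1121 to 4176 CPM in HBO and from 2369 to 3444 CPM in injury, beside 48.4 to 147 CPM in control. Col1a1, a chain of type I collagen, had 948, 1938 and 1480 CPM in HBO and 79.2, 411 and 634 CPM in injury. Its groups did not overlap, and the 95% interval of its log2 change of 1.94 ran from -0.31 to 4.20. For proteoglycan genes, whose products limit axon growth in the scar, the median of 11 sums was -0.15.

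Interferon-response genes had few members but leaned one way. All 4 tested sums were above 0, with a median of 0.82, and 2 had an unadjusted p under 0.05. Mx1, an antiviral GTPase, had 23.3, 28.9 and 59.8 CPM in HBO, 10.2, 24.3 and 11.8 in injury and 4.73 to 11.4 in control, a log2 change of 1.30 (95% interval 0.19 to 2.41). The groups of Mx1 overlapped and HBO replicate 3, the library apart on the second component, was the highest. In 15 refits, among them those with 1 library left out, the Mx1 sum kept its direction and did not pass. The size of its change without HBO replicate 3 is not given here. Neither Ifih1 at 0.35 nor Irf3 at 0.09 had an unadjusted p under 0.05.

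**Figure D5:**
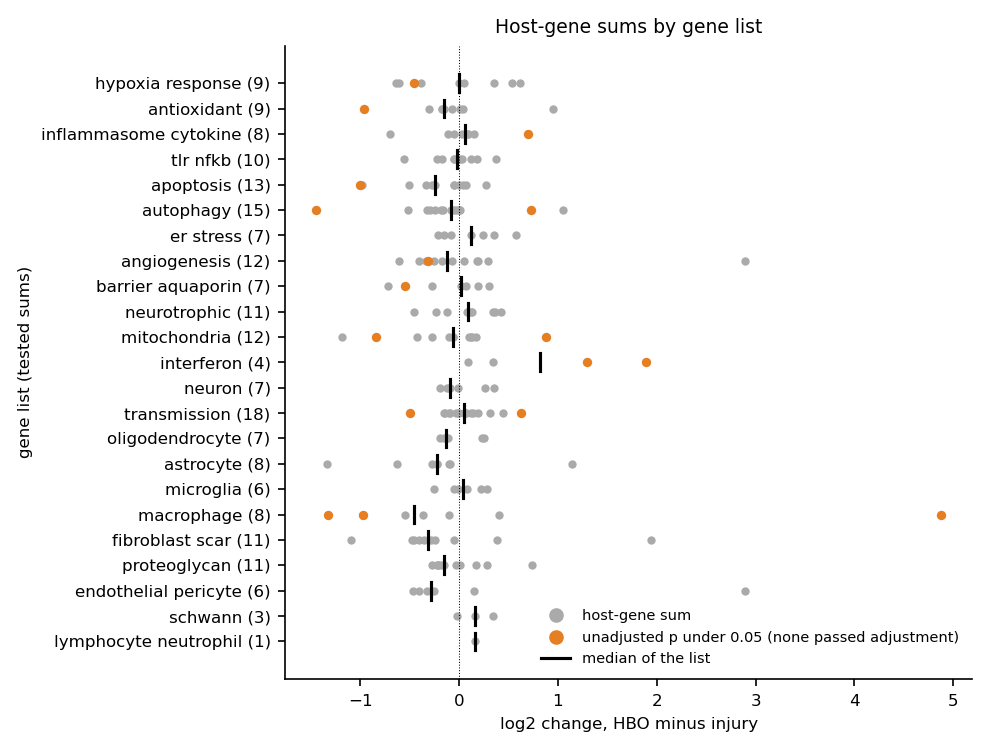
Log2 change from injury to HBO of host-gene sums (horizontal axis) by gene list (rows, with the number of tested sums). Points are genes, orange where the unadjusted p was under 0.05, and black bars are medians. The medians of the lists with at least 5 tested sums lie between -0.45 and 0.12, and that of the 4 interferon sums is 0.82.

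How small a difference could be seen depended on abundance. The 95% interval lay within 2-fold in both directions for 12667 of the tested features (47.6%). The share was 4.81% for features under 5 CPM, 43.7% from 5 to 20 CPM, 83.2% from 20 to 100 CPM and 80.9% at 100 CPM or more. For most features under 5 CPM, a 2-fold difference in at least 1 direction was not excluded.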

How the data were processed

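Total RNA of mouse spinal cord was sequenced in 9 libraries. The authors deposited whole-number counts and FPKM values per long noncoding transcript, aligned with HISAT2 to GRCm38 per the submitters' processing notes; the counter, its strand setting and its handling of overlapping transcripts are not stated there or in the labels. Transcripts sharing a name were summed (786 names). Features passing edgeR's filterByExpr (minimum count 10) were scaled by TMM and fitted by group over all 9 libraries with the quasi-likelihood test (edgeR 4.0.16, R 4.3.3), with Benjamini-Hochberg adjustment over all features tested and a threshold of 0.05. The deposited FPKM values served only to recover library totals for 1 alternative. Positions were set against GENCODE M21; microRNA sequences are from RefSeq GRCm38.p6. Intervals come from each fit's SE, and bounds against 0 use 3 counts over the group. The fit was also run on simulated counts that followed the fitted trend of spread and did not model all-or-none features. That run does not bear on calls of such features.

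The text names every called feature, the 8 largest each way without overlap at 5 CPM or more and an unadjusted p under 0.05, listed RNAs at 50 CPM or more and the 4 of smallest p, the 2 host-gene sums of smallest p in each list, the most abundant features and the 6 largest DESeq2 calls each way whose groups do not overlap. Members and lists were chosen with earlier results of these data known. Alternatives were DESeq2 1.42.0, RLE scaling, FPKM totals, no filter, a robust fit, unsummed or merged transcripts, a replicate block, the 6 compared libraries alone, sums without transcripts on coding exons, and each library left out. A few host-gene sums that this rule selects are not reported here.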

Additional observations from a re-analysis of the deposited data

How the results depend on the processing

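The count of 4 called features was 55 with DESeq2 (30 higher, 25 lower), 2 with library totals from FPKM, 2 with the replicate number as a block, and between 2 and 19 with 1 library left out. It was 4 with RLE scaling, a robust fit or unsummed transcripts, and 3 without the filter. With merged transcripts it was also 4, but NONMMUT086510.1 then lay in a set of 8 overlapping transcripts that did not pass (log2 change -2.17, edgeR). NONMMUT026984.2, on an untranslated exon of Senp7, passed there instead (adjusted p = 0.0312, edgeR). With the 6 compared libraries alone the count was 4 as well, and 1 of the 4 was shared. The 2 called host-gene sums became 11 with DESeq2, 1 with the replicate block, 0 without transcripts on coding exons (edgeR; 122 of 3822 sums had an unadjusted p under 0.05 and DESeq2 was not run there) and between 1 and 6 with 1 library left out. The cause was not tested. Replicate numbers did not pair the libraries: HBO and injury libraries of the same number had correlations of deviations of -0.0545, -0.0423 and 0.0441. With the block NONMMUT100183.1 and NONMMUT069202.2 did not pass (adjusted p 0.348 each, edgeR). Of the refits of single results, 1439 kept their side of the threshold and direction, 26 lost the call, 9 gained it and 41 changed sign. The sign changes came from 18 results, none of them called, and 34 of the 41 came from leaving out 1 library. With library totals from FPKM the log2 changes were 0.0505 for Rmst and 0.0751 for Dleu2, without the filter they were 0.00928 for Rmst and 0.0121 for Dleu2, and with the block they were 0.0189 for Dleu2, -9.955e-05 for Snhg14 and -0.00421 for Firre. With 1 library left out the log2 changes ran from -1.04 to 1.36 for 1700020I14Rik, -0.18 to 0.0739 for 9530059O14Rik, -0.32 to 0.90 for C130071C03Rik, -0.23 to 0.26 for Dleu2, -0.67 to 0.25 for Dnm3os, -0.36 to 0.20 for Firre, -0.0752 to 0.12 for Gas5, -0.16 to 0.64 for H19, -0.19 to 0.20 for Malat1, -0.16 to 0.00559 for Mir124-2hg, -0.39 to 0.13 for Mir22hg, -0.0141 to 0.33 for Peg13, -0.0870 to 0.0977 for Rmst, -0.12 to 0.17 for Snhg14, -0.85 to 0.43 for Tug1 and -0.0148 to 0.0970 for Xist. The ranges of the host-gene sums were -0.0614 to 1.56 for Fgfr3 and -3.07 to 1.47 for Sox9.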

Other observations

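The features below were picked after the values were seen, so no test is given, and none passed in edgeR; DESeq2 called NONMMUT032523.2 and NONMMUT021833.2. AW112010 had 33, 50 and 39 counts in HBO replicates 1, 2 and 3 and 32, 22 and 14 in injury, without overlap. NONMMUT009926.2, over the GTPase genes Igtp and Irgm2, had 27, 47 and 53 counts in HBO and 20, 18 and 14 in injury, also without overlap. NONMMUT032523.2 had 55, 123 and 158 counts in HBO and 22, 43 and 32 in injury, without overlap. BC051226 had 23, 18 and 22 counts in HBO and 7, 6 and 9 in injury, and its groups lay apart too. NONMMUT021833.2, at the protocadherin gene Pcdh17, had 272, 115 and 133 counts in HBO, 21, 26 and 8 in injury and 34, 69 and 69 in control.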
